A study of Homo sapiens with 18 samples.

Results

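The 10 genes described here encode charged multivesicular body proteins (CHMPs) of the ESCRT-III complex: CHMP1A, CHMP1B, CHMP2A, CHMP2B, CHMP3, CHMP4A, CHMP4B, CHMP5, CHMP6 and CHMP7. They were taken by symbol from the 43735 genes of a table of raw read counts. A filter on low counts kept 14281 genes for testing, 8 of the members among them, and left out CHMP4A and CHMP3.

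ESCRT-III proteins are small soluble subunits that polymerise on the cytosolic face of a membrane into filaments that draw a neck together and cut it. They bud vesicles into endosomes, separate dividing cells, reseal the nuclear envelope and shed damaged pieces of plasma membrane. In ferroptosis, a cell death driven by iron and by peroxidation of membrane lipids, this repair of the plasma membrane is known to delay the rupture of the cell. CHMP6 and CHMP7 start the polymer, CHMP4 paralogs form its core, CHMP2 and CHMP3 proteins turn it into a cutting helix, CHMP1 proteins join late, and CHMP5 binds the regulator VTA1. The ATPases VPS4A and VPS4B then take the filament apart.

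RNA was sequenced from the human multiple myeloma lines MM1S, which responds to glucocorticoids, and MM1R, a resistant line of the same origin that the study describes as lacking the glucocorticoid receptor. RNA of its gene NR3C1 was present in untreated MM1R cells at 13.8 to 14.9 CPM, lower than in MM1S cells by a log2 value of -2.97 (FDR = 0.00193). In each line 1 group was left untreated, 1 group received 5 µM RSL3, an inhibitor of the lipid peroxidase GPX4, for 3 h, and 1 group received 2 µM ferrostatin-1 (Fer-1), which blocks lipid peroxidation, for 2 h before the same RSL3 treatment. Each of the 6 groups held 3 libraries, and all cells were grown in the same medium with serum. Replicates 1, 2 and 3 came from passages 4, 6 and 7 of MM1R cells and from passages 16, 22 and 23 of MM1S cells. Line and passage therefore cannot be told apart, no group received Fer-1 alone, and the p-values measure the spread between passages of 1 cell line each. RNA of whole cultures was read, so a change in every cell cannot be told apart from a larger change in some cells.

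Total counts were 17635438 to 19368343 per library, and every pair of libraries within a group differed by more than counting error (chi-square over its degrees of freedom from 7.85 to 162). All 7 plasma cell markers examined, among them SDC1, XBP1 and IRF4, were expressed in every group, with a summed level of 3579 to 5403 CPM per library, where CPM are counts scaled to the size of each library with TMM factors. With RSL3, in the average of both lines, 1 of these markers rose and 2 fell at an FDR under 0.05, beside 15.5% of all tested genes in either direction. The 12 markers of B cells, T cells, monocytes and fibroblasts summed to 5.44 to 14.1 CPM per library, except 24.9 CPM in MM1S RSL3 replicate 1, where the collagen gene COL1A1 alone was at 19.5 CPM. Of these 12 markers 2 could be tested and COL1A1 had an FDR of 0.0398 with RSL3 in the average (1.94), against 0.53 (FDR = 0.312) without MM1S RSL3 replicate 1. MM1R Fer-1 + RSL3 replicate 2, as labelled, stood apart. Its median over 13 genes that mark the MM1S line was 49.3% of the level in MM1S cells. These genes were chosen with that library left out. Each was at least 8 times higher in every MM1S library than in any other MM1R library. The values of the other 8 MM1R libraries, between -0.262 and 0%, were therefore set by this choice. The library that stood apart also held 50.2 CPM of NR3C1 against 16.9 and 15.3 CPM in its group. MM1S RSL3 replicate 1 also stood apart, with the lowest TMM scaling factor (0.864 in a range up to 1.06). Both were kept, and values without them stand beside some of the main results they enter.

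The promoters of CHMP1B and CHMP4B are shown because these members had the most positive and the most negative log2 fold change with RSL3 in the average of both lines described below. The set of RefSeq promoters used here had an entry for 7 of the 10 members, and the bases before the start site are printed 5′ to 3′ for the plus strand of build GRCh38.p14, at chr18:11851163-11851412 for CHMP1B and at chr20:33811098-33811347 for CHMP4B. Capitals mark the cAMP response element (CRE) TGACGTCA in CHMP1B and its shorter core TGACG in CHMP4B.
CHMP1B: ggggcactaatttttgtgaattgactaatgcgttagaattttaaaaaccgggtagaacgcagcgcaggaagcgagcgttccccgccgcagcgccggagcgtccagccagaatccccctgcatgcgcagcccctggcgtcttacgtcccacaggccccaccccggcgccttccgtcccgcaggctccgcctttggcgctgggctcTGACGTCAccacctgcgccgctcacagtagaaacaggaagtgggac
CHMP4B: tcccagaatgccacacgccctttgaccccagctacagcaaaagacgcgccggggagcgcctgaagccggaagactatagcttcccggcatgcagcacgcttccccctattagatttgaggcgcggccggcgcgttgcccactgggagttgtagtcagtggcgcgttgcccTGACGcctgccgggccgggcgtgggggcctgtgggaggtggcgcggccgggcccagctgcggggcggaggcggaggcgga
Each stretch is 250 bases long, with a GC content of 62.4% in CHMP1B and 69.6% in CHMP4B.

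The CRE, which is bound by proteins of the CREB and ATF families, lay 46 to 39 bases before the start of CHMP1B. On either strand it occurred in 1.6% of 35116 promoters of the same length and in 1 of the 7 members with an entry. The core TGACG, which the full CRE contains, lay 80 to 76 bases before the start of CHMP4B and occurred in 21.2% of promoters and in 4 of the 7 members (CHMP1A, CHMP1B, CHMP2A and CHMP4B). The antioxidant response element TGANNNNGC was present in 35.2% of promoters and in 3 members (CHMP2B, CHMP4A and CHMP5). Among the 7 members none held the AP-1 site TGANTCA (6.6% of promoters), the heat shock element GAANNTTC (5.8%) or the ATF4-CHOP composite TGATGNAA (3.1%). These matches describe letters and show no binding.

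Over all 18 libraries, untreated and treated together, the members differed widely in their level per length of transcript, given as CPM per kb of the canonical transcript. CHMP4B, the core filament subunit, was the highest member in each of the 18 libraries, with a median of 371 CPM per kb (298 to 483) and 58.2 to 70.1% of the summed level of the members. CHMP2A, a subunit of the cutting helix, was second in each library, with a median of 86.9 CPM per kb. The other tested members followed far below, and their order changed between libraries. Their medians were 31.3 CPM per kb for CHMP7, 25.5 for CHMP2B, 20.2 for CHMP5, 17.7 for CHMP1A, 15.3 for CHMP1B and 11.7 for CHMP6. CHMP7 and CHMP2B each ranked between 3 and 5, CHMP5 between 5 and 6, CHMP1A between 4 and 7, CHMP1B between 4 and 8 and CHMP6 between 7 and 8, so neighbours in this order overlapped. The order also rests on the transcript length used. The canonical transcript of CHMP2A has 894 bases and its annotated exons together 3654, against 3410 and 4698 for CHMP7. In CPM, without regard to length, the mean of CHMP7 was above that of CHMP2A in each group. The means were 123 against 85.3 CPM in untreated MM1R cells and 87.9 against 74.3 CPM in untreated MM1S cells.

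**Figure D1:**
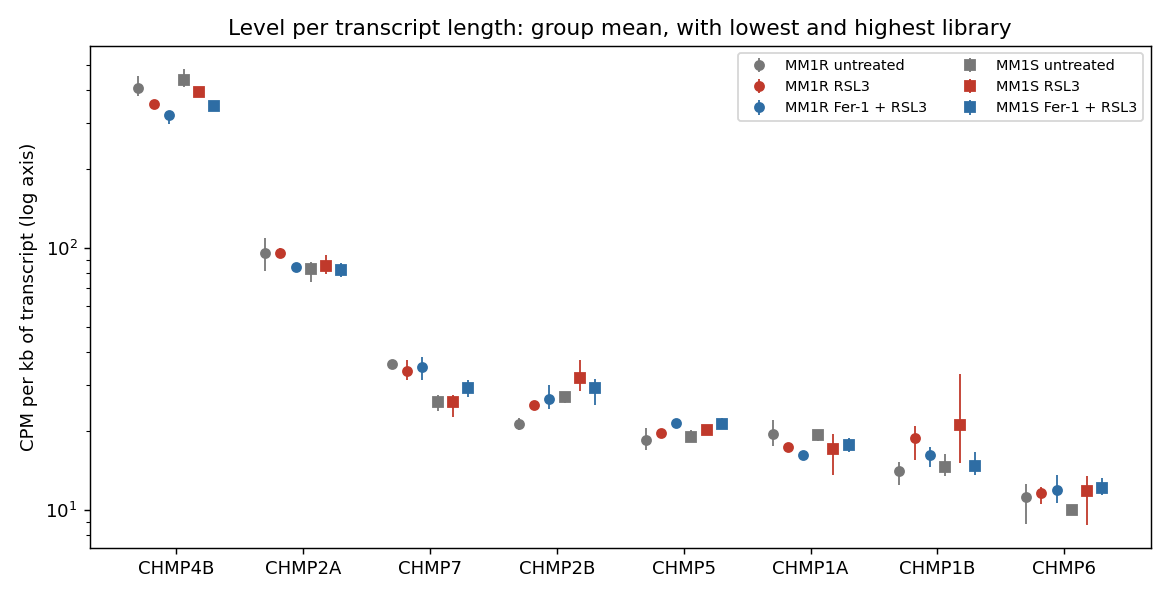
Level of the 8 tested ESCRT-III genes in CPM per kb of transcript on a log axis, by group. Points are means of 3 libraries and bars reach from the lowest to the highest library; CHMP4B (median 371) and CHMP2A (median 86.9) lie above all others in every group.

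CHMP4A and CHMP3 were at or near 0 in these counts. CHMP4A, a paralog of CHMP4B in the core filament, had 0 counts in all 18 libraries, which allows a level of up to 0.155 to 0.170 CPM per library if 3 counts are taken as the limit. CHMP3, the partner of CHMP2A, had 0 to 2 counts per library and 8 counts in all. In an annotation of hg19, 96.8% of the exon bases of the canonical CHMP4A transcript are shared with the genes ENSG00000254692 and ENSG00000260669 on the same strand. Neither of these genes is listed under that name in the counts. For CHMP3, 24.2% of the exon bases of the canonical transcript are shared with the read-through gene RNF103-CHMP3, which is listed. The part of such overlaps in the low counts was not tested, and no comparison is made for CHMP4A or CHMP3. RNF103-CHMP3, whose transcripts hold exons of CHMP3, had counts of 4, 2 and 3 in untreated and 11, 5 and 15 in RSL3-treated MM1R cells, and of 1, 4 and 5 in untreated and 16, 2 and 6 in RSL3-treated MM1S cells. The MM1R groups did not overlap and the MM1S groups did. Averaged over both lines its log2 fold change was 1.60 (SE 0.50) with an FDR of 0.0398, at counts of 16 or fewer. It was 1.04 (FDR = 0.175) without MM1S RSL3 replicate 1, and 10 of 18 fits without 1 library kept the call. RNU6-640P and CHMP3-AS1 also overlap CHMP3 and were not analysed here. All FDR values without a named tool come from the quasi-likelihood test of edgeR, adjusted after Benjamini and Hochberg over all tested genes.

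**Figure D2:**
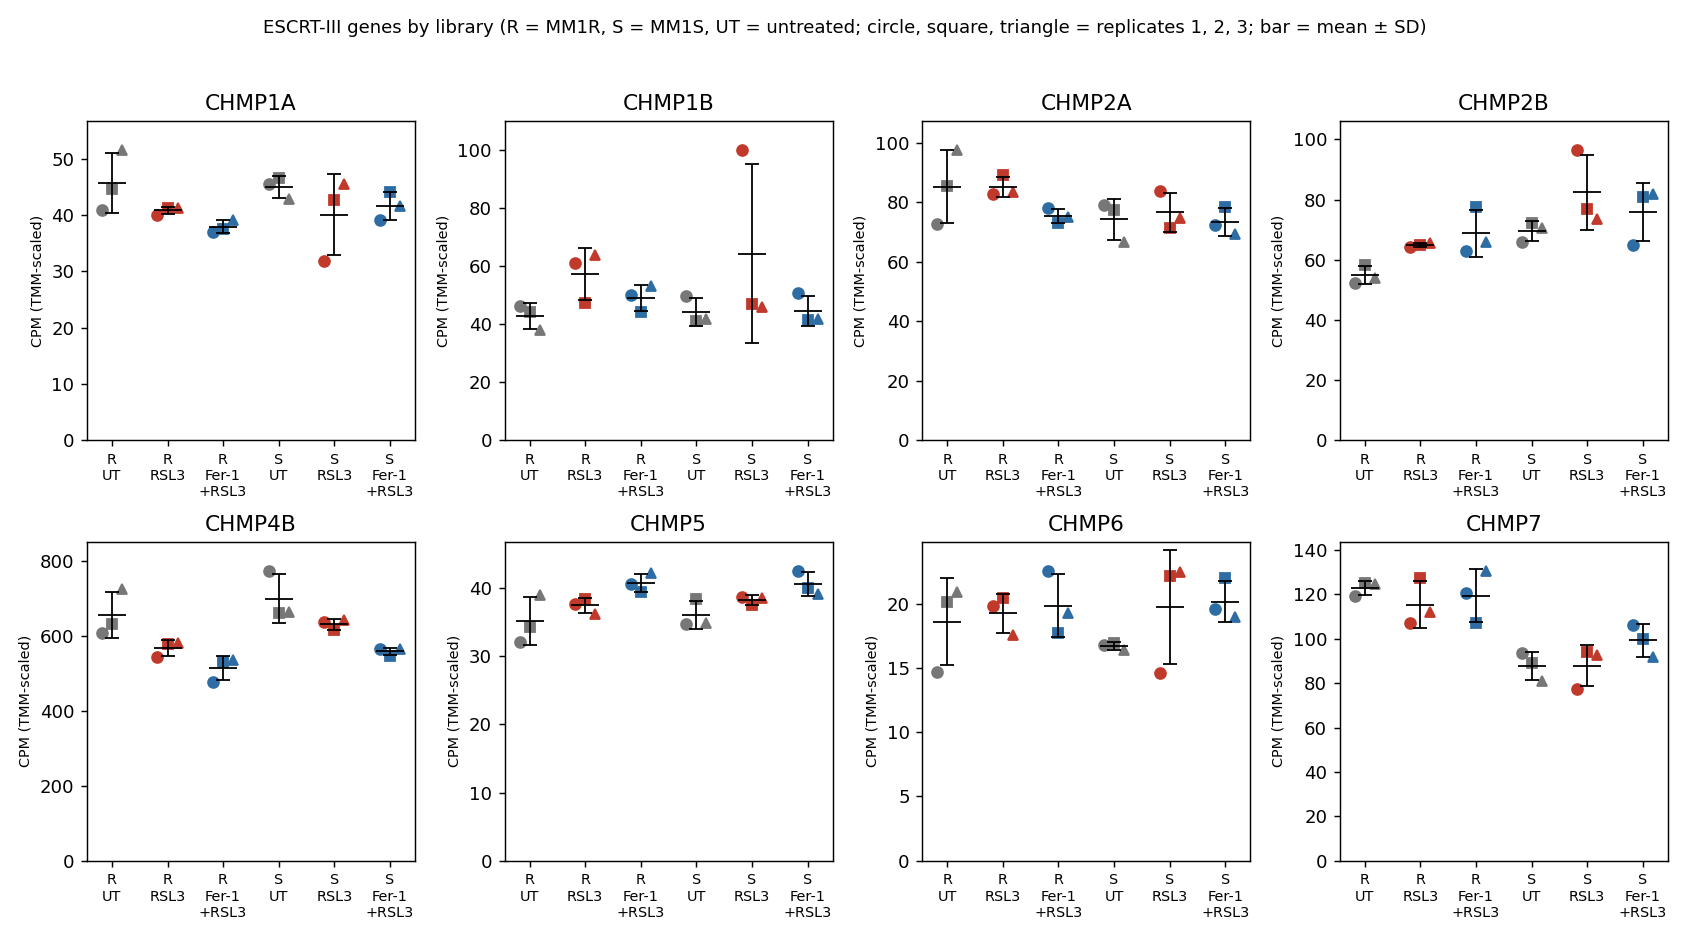
CPM of each tested ESCRT-III gene in the 18 libraries (linear axes from 0). Grey, red and blue symbols are untreated, RSL3 and Fer-1 + RSL3 libraries, circles, squares and triangles are replicates 1, 2 and 3, and bars give mean ± SD; CHMP4B is lower with RSL3 than untreated and lower again with Fer-1 + RSL3 in both lines, and the circle of CHMP1B in RSL3-treated MM1S cells stands at 99.8 CPM.

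The comparison of RSL3-treated with untreated cells asks whether RNA of the repair machinery changes early in ferroptosis. None of the 8 tested members passed an FDR of 0.05 in either line. Of all 14281 genes, 3.36% passed in MM1R cells and 3.67% in MM1S cells. At an unadjusted p under 0.05 there was 1 member in MM1R cells (CHMP4B, lower) and 1 in MM1S cells (CHMP1B, higher), and DESeq2 and limma called 0 members in each line. Of all genes, 18.5% had such a p in MM1R and 19.5% in MM1S cells, so the members were not above this background. DESeq2 called 6.61% of all genes in MM1R and 7.23% in MM1S cells. Averaged over both lines edgeR again called 0 members, where 15.5% of all genes were called. There, 3 members had an unadjusted p under 0.05 (CHMP1B and CHMP2B higher, CHMP4B lower), limma called 0 and DESeq2 called 3. Of all genes, 30.2% had such a p and DESeq2 called 19.1%. The log2 fold changes of the members in the averaged comparison ran from -0.18 to 0.48 with a median of 0.06, beside a median of -0.00013 over all genes. No member reached a 2-fold change, the size asked of a DEG.

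With the passage as a block, which compares libraries of the same passage, 3 members were called in the averaged comparison, and 30.4% of all genes were called. CHMP1B rose by 0.44 (FDR = 0.0121), CHMP2B rose by 0.24 (FDR = 0.0379) and CHMP4B fell by 0.17 on the log2 scale (FDR = 0.0191). DESeq2 without the block called CHMP1B, CHMP2B and CHMP4B as well, with an FDR of 0.0289, 0.0489 and 0.0249. In the edgeR test without the block their FDR was 0.0537, 0.0624 and 0.0844. Leaving out 1 library moved the unblocked count between 0 and 2: CHMP1B was called without MM1R RSL3 replicate 2 (FDR = 0.0446), without MM1S RSL3 replicate 2 (FDR = 0.0231) and without MM1S RSL3 replicate 3 (FDR = 0.0178), and CHMP2B without MM1S Fer-1 + RSL3 replicate 1 (FDR = 0.0482) or MM1S RSL3 replicate 3 (FDR = 0.0400).

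CHMP1B, a late-acting subunit that recruits VPS4 and spastin, lies in a single exon at hg19 chromosome 18, 11851412 to 11854443, plus strand. In MM1R cells it was at 46.3, 44.1 and 37.9 CPM without treatment and at 61.0, 47.1 and 63.6 CPM with RSL3. In MM1S cells it was at 49.7, 40.9 and 41.8 CPM without treatment and at 99.8, 46.7 and 45.9 CPM with RSL3. The MM1R groups did not overlap, the MM1S groups did, and replicate 1 of the RSL3-treated MM1S cells stood far above the rest of its group. The log2 fold change was 0.42 (SE 0.23, FDR = 0.349) in MM1R cells and 0.54 (SE 0.23, FDR = 0.204) in MM1S cells. Without MM1S RSL3 replicate 1 the MM1S value was 0.08 (FDR = 0.903) and the averaged value fell from 0.48 to 0.25 (FDR = 0.105). Within passages CHMP1B was higher with RSL3 in 6 of 6 passages, by 0.40, 0.09 and 0.74 in passages 4, 6 and 7 and by 1.01, 0.19 and 0.14 in passages 16, 22 and 23. The share of all genes with the same direction in 6 of 6 passages was not computed, so such counts are descriptions, here and below. The RSL3 libraries of passages 7 and 16, where the difference was largest, also had the lowest TMM factors of all libraries, 0.926 and 0.864, and the part of this in the result was not tested. GNAL, which overlaps CHMP1B on the same strand without sharing exon bases, had 13 to 69 counts per library against 654 to 1519 for CHMP1B, and its averaged log2 fold change was -0.03 (SE 0.26). CHMP1B-AS1 lies on the opposite strand and shares 553 exon bases with CHMP1B, 18.2% of its transcript. It was not analysed here, and as the use of strand in counting is not known, its reads cannot be told apart from those of CHMP1B.

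CHMP2B, which caps and bends the filament, was at 52.3, 58.3 and 54.0 CPM in untreated MM1R cells and at 64.1, 64.9 and 65.5 CPM with RSL3. In MM1S cells it was at 66.0, 72.1 and 70.6 CPM without treatment and at 96.5, 77.0 and 73.6 CPM with RSL3. RSL3 libraries lay above the untreated ones without overlap in both lines. The log2 fold change was 0.24 (SE 0.12) in each line, with an FDR of 0.301 in MM1R and 0.276 in MM1S cells. Without MM1S RSL3 replicate 1 it was 0.12 in MM1S cells (FDR = 0.758), and the averaged value fell from 0.24 to 0.18. CHMP2B was higher in 6 of 6 passages, by 0.06 to 0.55.

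CHMP4B, at hg19 chromosome 20, 32399154 to 32442172, plus strand, differed in the other direction. In MM1R cells it was at 608, 631 and 724 CPM without treatment and at 543, 578 and 581 CPM with RSL3. In MM1S cells it was at 773, 660 and 664 CPM without treatment and at 638, 614 and 641 CPM with RSL3. All RSL3 libraries were lower than the untreated libraries of their line. The log2 fold change was -0.21 (SE 0.10, FDR = 0.257) in MM1R cells and -0.15 (SE 0.10, FDR = 0.424) in MM1S cells, and CHMP4B was lower in 6 of 6 passages, by values of -0.32 to -0.05. Without untreated MM1R replicate 3 the MM1R value was -0.13 (FDR = 0.595), and without untreated MM1S replicate 1 the MM1S value was -0.07 (FDR = 0.756). ZNF341-AS1 near the start of CHMP4B (1 to 12 counts) and MIR4795 near that of CHMP2B (0 to 1 counts) were too low to be tested.

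**Figure D3:**
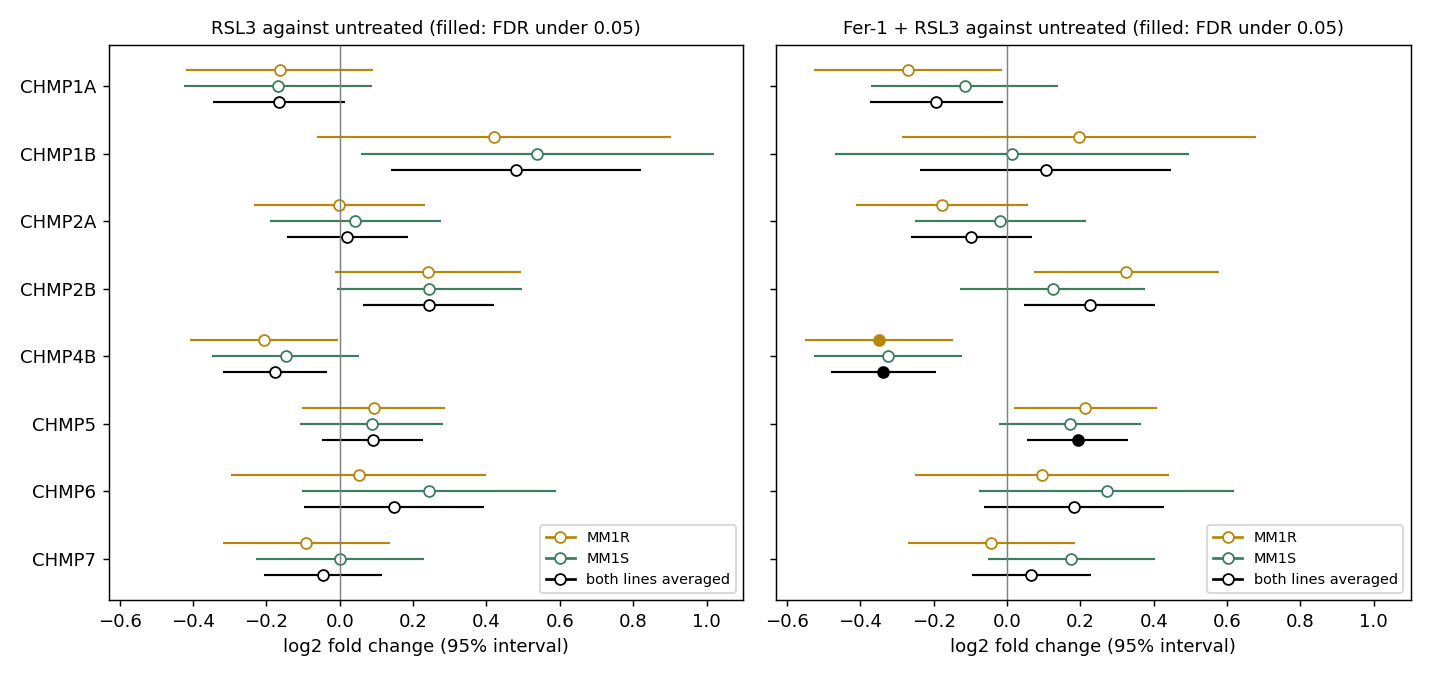
Log2 fold changes of the 8 tested members with 95% intervals, for RSL3 (left) and Fer-1 + RSL3 (right) against untreated cells, in MM1R, in MM1S and averaged over both. Filled points have an FDR under 0.05; on the left none is filled, and on the right CHMP4B is filled in MM1R cells (-0.35) and in the average (-0.34), and CHMP5 (0.19) in the average.

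The other tested members gave no call with RSL3. CHMP1A, the paralog of CHMP1B, was measured in untreated MM1R libraries at 40.9, 44.7 and 51.6 CPM and in RSL3 libraries at 40.1, 41.2 and 41.2 CPM. For MM1S these levels were 45.5, 46.7 and 42.9 CPM untreated, then 31.9, 42.7 and 45.5 CPM with RSL3. The groups overlapped in both lines, and the lowest value came from MM1S RSL3 replicate 1, the library in which CHMP1B was highest. The log2 fold change of CHMP1A was -0.16 in MM1R and -0.17 in MM1S cells, with an averaged 95% interval of -0.35 to 0.01. Without MM1S RSL3 replicate 1 it was -0.02 in MM1S cells (FDR = 0.964) and -0.09 in the average (FDR = 0.462), without MM1S RSL3 replicate 3 it was -0.27 in MM1S cells (FDR = 0.228), and without untreated MM1R replicate 3 it was -0.07 in MM1R cells (FDR = 0.860). With Fer-1 before RSL3, CHMP1A was at 37.01, 37.6 and 39.2 CPM in the MM1R line and at 39.0, 44.2 and 41.6 CPM in the MM1S line. It was below the untreated library in 6 of 6 passages, at -0.27 in MM1R cells (SE 0.12, FDR = 0.179). SPATA33, whose start lies 2 bases from that of CHMP1A on the opposite strand, had an averaged log2 fold change of -0.31 with RSL3 (FDR = 0.221).

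CHMP2A, the partner of CHMP3 in the cutting helix, was measured in MM1R cells at 72.8, 85.4 and 97.5 CPM untreated and 82.8, 89.1 and 83.6 CPM with RSL3. For MM1S the levels were 79.2, 77.3 and 66.5 CPM untreated, then 83.9, 71.3 and 74.5 CPM with RSL3. RSL3 libraries lay inside or near the untreated range in both lines, and the averaged log2 fold change was 0.02 (interval -0.14 to 0.19). With Fer-1 before RSL3 the levels were 78.0, 73.1 and 75.1 CPM in MM1R and 72.5, 78.4 and 69.3 CPM in MM1S cells, each within the untreated range of its line.

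CHMP6, which links ESCRT-II to the first CHMP4 subunits, was among the lowest tested members. In MM1R cells it was at 14.7, 20.2 and 20.9 CPM untreated, 19.8, 20.4 and 17.5 CPM with RSL3, and 22.5, 17.7 and 19.2 CPM with both agents. In MM1S cells it was at 16.8, 16.9 and 16.4 CPM untreated, 14.6, 22.1 and 22.5 CPM with RSL3, and 19.5, 21.97 and 18.9 CPM with Fer-1 and RSL3. The MM1S untreated libraries lay close together below those with Fer-1, and RSL3 libraries lay on both sides of them. ENSG00000263218, on the opposite strand, shares 455 exon bases with CHMP6, and ENSG00000280351 and AC127496.1 overlap its gene body without sharing exon bases. None of these was analysed here. The averaged log2 fold change with RSL3 was 0.15 (interval -0.10 to 0.39), and 0.24 without MM1S RSL3 replicate 1. For CHMP7, the other starter, it was -0.05 (interval -0.21 to 0.12), and for CHMP5 it was 0.09 (interval -0.05 to 0.23). The intervals of these 5 members leave out a 2-fold change in either direction, and that of CHMP1B reached from 0.14 to 0.82.

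By non-overlap of the 3 RSL3 and 3 untreated libraries, 3 of the 8 members separated in MM1R cells (CHMP1B and CHMP2B above, CHMP4B below) and 2 in MM1S cells (CHMP2B above, CHMP4B below). Of all tested genes, 25.7% separated in MM1R and 24.9% in MM1S cells. With 8 members, neither count stands clear of this background, and no test of it was made. CHMP1B separated narrowly in MM1R cells, with its lowest RSL3 library at 47.1 CPM and its highest untreated library at 46.3 CPM. The difference between the RSL3 effects in the lines was called for 0 members and for 0% of all genes by edgeR. At an unadjusted p under 0.05 there were 0 members and 1.55% of all genes. DESeq2 called 0 members and 0% of all genes, and limma called 0 members. The difference for CHMP1B was 0.12 with a 95% interval of -0.56 to 0.80, which covers a large difference in either direction, and for CHMP4B it was 0.06 (-0.23 to 0.34).

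Fer-1 given before RSL3 was compared with RSL3 alone and with untreated cells, which share libraries, so the values are given side by side. Against RSL3 alone, edgeR called 0 members and 0% of all genes in MM1R cells, and likewise 0 members and 0% in MM1S cells. Averaged over both lines it called 0 members and 0.119% of all genes. At an unadjusted p under 0.05 there were 0 members in MM1R cells, 1 in MM1S cells (CHMP1B, lower) and 2 in the average (CHMP1B and CHMP4B, both lower), and DESeq2 and limma called 0 in each of these comparisons. The share of all genes with such a p was 6.17% in MM1R cells, 5.75% in MM1S cells and 12.8% in the average. DESeq2 called 0.273%, 0.049% and 1.61% of all genes in these comparisons. Non-overlapping groups were found for 4 members in MM1R cells (CHMP1A, CHMP2A and CHMP4B below, CHMP5 above), beside 13.4% of all genes, and for 2 in MM1S cells (CHMP4B below, CHMP5 above), beside 8.79%.

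CHMP1B with Fer-1 and RSL3 was at 49.95, 44.2 and 52.9 CPM in MM1R cells. MM1S cells gave 50.6, 41.3 and 41.7 CPM. It was lower than with RSL3 alone in 6 of 6 passages, and in MM1S cells each library lay within 1 CPM of the untreated library of its passage. The averaged log2 fold change was -0.37 (SE 0.16, FDR = 0.345) against RSL3 alone and 0.11 (SE 0.16, FDR = 0.693) against untreated cells. Without MM1S RSL3 replicate 1 the first of these values was -0.15, and without MM1R Fer-1 + RSL3 replicate 2 it was -0.34.

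CHMP4B with Fer-1 and RSL3 was at 477, 529 and 535 CPM in MM1R cells. MM1S cells gave 565, 547 and 563 CPM. Each value was lower than that of RSL3 alone and of untreated cells at the same passage, in 6 of 6 passages. Against untreated cells the log2 fold change was -0.35 (SE 0.10, FDR = 0.0306) in MM1R cells, the only member called there, where 9.22% of all genes were called. In MM1S cells it was -0.32 (SE 0.10, FDR = 0.0638), so edgeR called 0 members, where 4.61% of all genes were called. CHMP4B was the 1 member at an unadjusted p under 0.05, as were 18.8% of all genes. DESeq2 called it (FDR = 0.00605) along with 8% of all genes, while limma called 0 members. With the passage as a block the MM1S value was called as well (-0.32, FDR = 0.00994, with 14.7% of all genes called). The MM1R call was lost without MM1R Fer-1 + RSL3 replicate 2 (-0.37, FDR = 0.0700), without replicate 1 of that group (FDR = 0.113) and without untreated MM1R replicate 2 (FDR = 0.0689) or replicate 3 (FDR = 0.132), and the MM1S value was called without MM1S RSL3 replicate 1 (FDR = 0.0418) or untreated MM1R replicate 3 (FDR = 0.0472). Per kb, the level of CHMP4B went from 408 ± 38.4 to 321 ± 20.0 in MM1R cells and from 436 ± 40.1 to 349 ± 6.07 in MM1S cells (mean ± SD, n = 3).

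The average of both lines for Fer-1 and RSL3 against untreated cells was added after the data had been seen. It called 2 members, and 19% of all genes. CHMP4B was lower by a log2 fold change of -0.34 (SE 0.07, FDR = 0.0023), and it was called again without each single library, with an FDR of 0.0085 at most. CHMP5 was higher by 0.19 (SE 0.065, FDR = 0.0470), a call that held in 2 of the 18 fits without 1 library (without untreated MM1R replicate 3 or MM1S RSL3 replicate 1) and had an FDR of up to 0.108 in the others. Without MM1S RSL3 replicate 1 the count was 4, with CHMP1A (-0.19, FDR = 0.0420) and CHMP2B (0.22, FDR = 0.0335) added, and CHMP2B was also called without MM1S Fer-1 + RSL3 replicate 1 (FDR = 0.0346). The share of all genes called in these fits is not given here, so the added calls cannot be set against a background. CHMP5, the subunit that binds VTA1, was at 32.2, 34.3 and 39.0 CPM in untreated, 37.7, 38.5 and 36.3 CPM in RSL3-treated and 40.6, 39.5 and 42.2 CPM in Fer-1 and RSL3-treated MM1R cells. In MM1S cells the corresponding values were 34.8, 38.4 and 34.9, then 38.8, 37.5 and 38.5, then 42.6, 40.1 and 39.2 CPM. The libraries with Fer-1 lay above both other groups without overlap in each line, and above untreated cells in 6 of 6 passages. BAG1, whose start lies 159 bases from that of CHMP5 on the opposite strand, was at -0.10 (SE 0.08, FDR = 0.443) in the same comparison.

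With Fer-1 and RSL3, CHMP2B was at 62.9, 77.6 and 65.8 CPM in MM1R cells. MM1S cells gave 64.9, 80.9 and 81.8 CPM. Its highest MM1R value came from the library that stood apart by its MM1S markers, and untreated MM1S cells were at 66.0 to 72.1 CPM. The log2 fold change against untreated MM1R cells was 0.33 (SE 0.12, FDR = 0.100) with this library and 0.23 (FDR = 0.353) without it. With the passage as a block CHMP2B was called in the average of both lines (0.22, FDR = 0.0499), for which the share of all genes called is not given here. Groups with Fer-1 and untreated groups did not overlap for 4 members in MM1R cells (CHMP2B and CHMP5 above, CHMP1A and CHMP4B below), beside 30.6% of all genes, and for 3 in MM1S cells (CHMP5 and CHMP6 above, CHMP4B below), beside 28.3%.

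**Figure D4:**
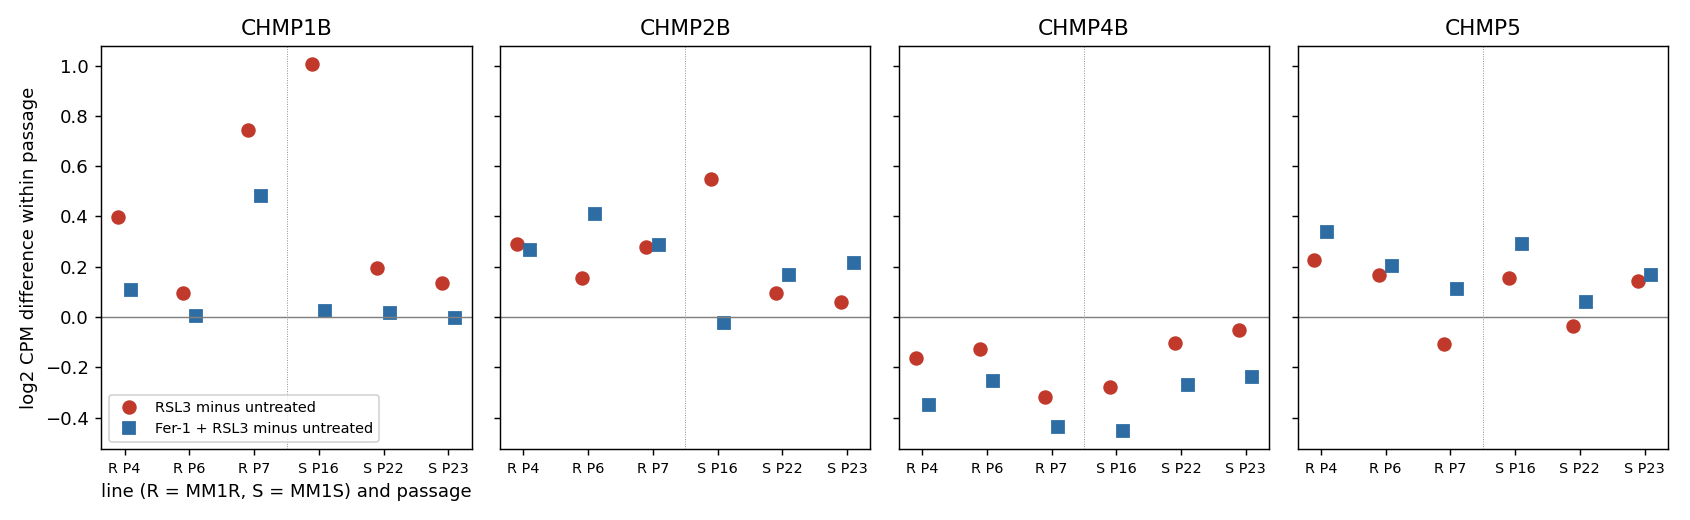
Difference in log2 CPM from the untreated library of the same passage, for RSL3 (red circles) and Fer-1 + RSL3 (blue squares). R and S are MM1R and MM1S cells; CHMP4B is below 0 for both treatments in all 6 passages with Fer-1 + RSL3 the lower, and CHMP1B with RSL3 ranges from 0.09 to 1.01.

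Without treatment, the lines differed in 1 of the 8 members. CHMP7, which starts ESCRT-III assembly at the nuclear envelope, was at 119, 125 and 125 CPM in MM1R cells. MM1S cells gave 93.7, 88.9 and 81.1 CPM. Every MM1R library was above every MM1S library. The log2 fold change was 0.49 (SE 0.11, FDR = 0.00921), and 10.5% of all genes were called. Without untreated MM1S replicate 3 it was 0.44 with an FDR of 0.0513. The gene lies at hg19 chromosome 8, 23101150 to 23119513, plus strand.

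CHMP2B was lower in untreated MM1R than in untreated MM1S cells, without overlap, by a log2 value of -0.34 (SE 0.12, FDR = 0.0801), which passed the threshold without MM1S RSL3 replicate 1 (FDR = 0.0434). These were the 2 members that separated the untreated lines, beside 32.4% of all genes. The same line comparison in the treated libraries was added after the data had been seen. With RSL3, CHMP7 was at 107, 127 and 112 CPM in MM1R and at 77.4, 93.9 and 92.6 CPM in MM1S cells. The groups stayed apart, and CHMP7 was the 1 member called (0.39, SE 0.11, FDR = 0.0305), where 9.17% of all genes were called; the count fell to 0 without any 1 of 5 of the 6 RSL3 libraries (all but MM1R RSL3 replicate 1). With Fer-1 and RSL3, CHMP7 was at 121, 107 and 131 CPM in MM1R and at 106, 99.8 and 91.6 CPM in MM1S cells. The lowest of the MM1R values was again the library with MM1S markers. edgeR called 0 members there and 2.94% of all genes. At an unadjusted p under 0.05 there was 1 member (CHMP7, higher in MM1R), beside 15.5% of all genes. DESeq2 called 0 members and 5.07% of all genes, and limma called 0 members.

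The partners of the members were described as lists. Of 10 ESCRT-III partners and disassembly factors, all tested, 0 rose and 0 fell with RSL3 in either line or in the average. Of all genes, 3.36% were called in MM1R cells, 3.67% in MM1S cells and 15.5% in the average. The median averaged log2 fold change of these 10 genes was -0.03. VPS4A, the ATPase that recycles the subunits, was at -0.19 (SE 0.08, FDR = 0.139) and its paralog VPS4B was at 0.16 (SE 0.08, FDR = 0.183). IST1, which co-polymerises with CHMP1B, was at 0.02 (SE 0.07, FDR = 0.872). CHMP4C, the third CHMP4 paralog, had 42 to 153 counts per library and was at 0.24 (SE 0.22, FDR = 0.505).

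Upstream of ESCRT-III, 0 of 3 ESCRT-0 and 0 of 3 ESCRT-II genes were called with RSL3 in the average, and of 8 tested among 9 ESCRT-I genes 1 rose, beside 15.5% of all genes called. This was VPS37B, an ESCRT-I subunit, measured in MM1R at 179, 185 and 162 CPM untreated and 238, 173 and 203 CPM with RSL3, and in MM1S at 145, 182 and 168 then 309, 215 and 196 CPM. The MM1R groups overlapped and the MM1S groups did not, and the averaged log2 fold change was 0.38 (SE 0.12, FDR = 0.0372). It was 0.27 (FDR = 0.0916) without MM1S RSL3 replicate 1, and 10 of 18 fits without 1 library kept the call, with an FDR of up to 0.104 in the others. With Fer-1 before RSL3, VPS37B was at -0.19 against untreated cells (FDR = 0.284). Of 6 genes of the ALIX arm and its deubiquitinases 1 rose, the deubiquitinase STAMBPL1, at 0.45 (SE 0.11, FDR = 0.0102), from 6.50 to 9.40 CPM in untreated libraries to 9.73 to 13.4 CPM with RSL3 without overlap in each line. STAM2, an ESCRT-0 subunit, was not called with RSL3 (FDR = 0.223) and was higher with Fer-1 and RSL3 in MM1R cells, at 0.47 (SE 0.14, FDR = 0.0487). Without MM1R Fer-1 + RSL3 replicate 2 this was 0.44 (FDR = 0.141), and the call was kept in 2 of 18 fits without 1 library. In the average of both lines STAM2 was at 0.41 (FDR = 0.0087) and was called in 18 of 18 such fits. It is named after its values were seen.

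Of 19 genes of other membrane repair systems, 16 were tested, and with RSL3 in the average of both lines 4 rose and 1 fell, with a median of 0.17, beside 15.5% of all genes called in either direction. ANXA2, a calcium-dependent membrane-binding annexin, was at 338, 406 and 468 CPM in untreated and 539, 520 and 511 CPM in RSL3-treated MM1R cells, and at 329, 433 and 448 then 722, 557 and 541 CPM in MM1S cells. RSL3 libraries lay above untreated ones in both lines, by 0.48 on average (SE 0.11, FDR = 0.0076). ANXA7, another annexin, rose by 0.40 (SE 0.08, FDR = 0.0024) and was the 1 gene of the list called in MM1R cells alone (0.41, FDR = 0.0474), beside 3.36% of all genes. In MM1S cells alone, beside 3.67% of all genes, the list had 2 calls, ANXA1 (2.96, FDR = 0.0364) and ANXA2 (0.59, FDR = 0.0446). These were 2.30 (FDR = 0.169) and 0.45 (FDR = 0.214) without MM1S RSL3 replicate 1, and without MM1R Fer-1 + RSL3 replicate 2 the MM1R value of ANXA7 had an FDR of 0.0651. In the average, ANXA1, ANXA2 and ANXA7 were called in 18 of 18 fits without 1 library. ANXA1 (2.99, SE 0.60, FDR = 0.0033) and the ferlin MYOF (1.55, SE 0.40, FDR = 0.0164) rose from few reads, with 0 to 18 and 5 to 14 counts in untreated libraries. The MYOF call was lost without MM1R RSL3 replicate 1 (FDR = 0.0528). CAPN1, a calcium-dependent protease that takes part in resealing, fell by 0.28 on the log2 scale (SE 0.08, FDR = 0.0218), a call lost without MM1R RSL3 replicate 3 or untreated MM1S replicate 1 (FDR of up to 0.0608).

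By the pattern over the 18 libraries, with the mean of each line removed, the genes most like CHMP1B were YPEL5 (Pearson r = 0.956), GTPBP1 (0.955), TSC22D1 (0.955), CPEB2 (0.954) and PNRC1 (0.952). The libraries share their treatment, and MM1S RSL3 replicate 1 takes part in each value, so these correlations are descriptions. Without that library the r of these 5 genes was 0.849 to 0.896. Among the members, CHMP1B had an r of 0.49 with CHMP2B and of -0.76 with CHMP1A, which were 0.085 and -0.48 without that library.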

How the data were processed

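RNA-seq was analysed for 18 libraries, 3 in each of 6 groups. The authors checked reads with FastQC (0.11.5), aligned them to hg19 with STAR (2.7.3a) and deposited raw counts for 43735 genes. They also deposited a table of normalized signal, the raw counts over 1 size factor per library (0.834 to 1.08), used here only as an alternative. The counting tool, annotation and use of strand are not given in the sources used here, so reads of overlapping genes or of paralogs and pseudogenes may be split. The members and gene lists were chosen with earlier results of these data known.

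Genes were kept by filterByExpr (minimum count 10), scaled by TMM, and tested with edgeR (4.0.16, R 4.3.3) by its quasi-likelihood test, with p-values adjusted after Benjamini and Hochberg, fitting the 6 group means together (12 residual degrees of freedom). A call is an FDR under 0.05. Intervals are 95% and come from the same test. Alternatives were DESeq2 (1.42.0), RLE scaling, no filter, the compared libraries alone, limma (3.58.1) on the authors' values, leaving out each library, and the passage as a block (8 residual degrees of freedom). Passages pair the libraries by their labels: same-passage deviations correlated by a median of 0.250 in MM1R (0.0338 to 0.516, 9 pairs) and 0.416 in MM1S cells (0.216 to 0.681, 9 pairs). Code was tested on simulated counts.

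All 10 members, genes that overlap them or start within 1000 bases of their start, CHMP4C, IST1, VPS4A and VPS4B, up to 5 genes with the smallest FDR of each other list called with RSL3, and the 5 genes most like the member with the largest averaged change are named. Positions are from GENCODE v44 on hg19, and promoters from RefSeq GRCh38.p14. Counting limits cover counting error only.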

Additional observations from a re-analysis of the deposited data

How the results depend on the processing

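The count of called members was the same under every alternative for RSL3 against untreated MM1R cells, the difference between the lines' RSL3 effects and Fer-1 + RSL3 against RSL3 alone (in each line and averaged), and for the lines with Fer-1 + RSL3 under those that could be fitted. For RSL3 against untreated MM1S cells it went from 0 to 1 with no filter (CHMP1B, FDR = 0.0346). For the average of both lines it went from 0 to 3 with DESeq2 and with the passage as a replicate block, to 1 with no filter, and to 0 to 2 without single libraries. For Fer-1 + RSL3 against untreated cells, the MM1R count of 1 went to 0 with no filter or only the compared libraries, and to 0 to 1 without single libraries; the MM1S count of 0 went to 1 with DESeq2 and the block, and to 0 to 1 without single libraries; the averaged count of 2 went to 1 with RLE scaling, no filter, only the compared libraries and the authors' values, to 3 with the block, and to 1 to 4 without single libraries. For untreated MM1R against MM1S cells the count of 1 went to 0 to 2 without single libraries, and with RSL3 in both the count of 1 went to 0 with no filter or only the compared libraries and to 0 to 1 without single libraries. The cause was not tested, and the share of all genes called also moved between settings. For RSL3 in the average of both lines it was 15.5% in the main test, 19.1% with DESeq2 and 30.4% with the block. For most other settings this share is not given here, so the counts of members there cannot be set against a background. The block cannot give differences in level between the lines, though it can give the difference between their RSL3 effects. It changed no other member's call.

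Of single values, the sign changed only where no call was made. For RSL3 in MM1R cells CHMP2A went to 0.0044 with the block and 0.0015 with the authors' values. For RSL3 in MM1S cells CHMP7 went to -0.0050 with RLE scaling, -0.0044 with DESeq2, -0.010 with no filter and -0.0061 with the authors' values. Without single libraries the log2 values that changed sign ran as follows. With RSL3 in MM1R cells, CHMP2A ran from -0.11 to 0.11 and CHMP6 from -0.10 to 0.14; in MM1S cells CHMP2A from -0.025 to 0.090 and CHMP7 from -0.050 to 0.090; in the average CHMP2A from -0.032 to 0.074 and CHMP7 from -0.086 to 0.0019. For Fer-1 + RSL3 against RSL3 in MM1R cells, CHMP2B ran from -0.011 to 0.15, CHMP6 from -0.057 to 0.12 and CHMP7 from -0.031 to 0.13; in MM1S cells CHMP1A from -0.085 to 0.16, CHMP2A from -0.11 to 0.0089, CHMP2B from -0.19 to 0.011 and CHMP6 from -0.15 to 0.13; in the average CHMP1A from -0.10 to 0.025, CHMP2B from -0.064 to 0.040 and CHMP6 from -0.057 to 0.088. For Fer-1 + RSL3 against untreated MM1R cells, CHMP6 ran from -0.052 to 0.19 and CHMP7 from -0.12 to 0.029; in MM1S cells CHMP1B from -0.087 to 0.11 and CHMP2A from -0.087 to 0.027. Between the untreated lines CHMP1A ran from -0.075 to 0.10, CHMP1B from -0.10 to 0.047 and CHMP5 from -0.12 to 0.025. With 3 libraries a group, members differing by less than their intervals cannot be told apart at this depth.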
